A study of Mus musculus with 6 samples.

Results

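Mitochondrial ribosomal protein genes were examined in small intestinal organoids after culture with vehicle or with MMK-1, a peptide that activates the receptor FPR2. The genes were taken by symbol alone, as protein-coding entries whose symbol begins with Mrpl or Mrps followed by a number, and 78 of the 21397 genes in the deposited table met this rule. Of these, 49 carry an Mrpl symbol and 29 an Mrps symbol. The organoids were grown from crypts of Fpr2f/f mice on a C57BL/6J background, aged 8 to 12 weeks, and both groups carry the floxed allele, with no Cre named for either. The MMK-1 group received 1 µmol/L MMK-1 and the control group only the vehicle, 0.1% DMSO, each for 5 days. The methods describe the DMSO of the controls as matched in concentration, so that both groups are taken to have received it. There were 3 libraries per group and 6 in all, and a figure legend of the study gives organoids of 3 mice for each sample. A treatment tag in the labels states the MMK-1 dose in mmol/L, whereas the protocol text and the methods give the dose used here.

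The mitochondrial ribosome translates the few proteins encoded by mitochondrial DNA, which are core subunits of the respiratory chain and of the ATP synthase. Its RNAs are made inside the organelle, whereas all of its proteins are encoded in the nucleus, made in the cytosol and imported. Compared with its bacterial relative it has less RNA and many added proteins, so its proteins are divided into those with a bacterial homologue and those specific to mitochondria, and into a small subunit, which decodes the mRNA, and a large subunit, which joins amino acids. In the intestinal epithelium, mitochondrial activity is known to differ between crypt stem cells, Paneth cells and absorptive cells.

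The total of each library, computed from the FPKM values, was between 35512738 and 37537462 fragments. Every member passed the filter of a mean of at least 1 FPKM (fragments scaled by the length of the gene and the total of the library), and each had between 362 and 5890 fragments in a library. MMK-1 replicate 3 stood apart from the other MMK-1 libraries, being the highest of them in 55 of 78 members (70.5%) and in 60.7% of all genes tested. The cell type markers of the groups differed widely. Markers of stem cells were higher in 7 of 7 tested genes and markers of proliferation in 12 of 12, whereas enterocyte markers were lower in 11 of 12 and higher in 1. Paneth cell markers were higher in 6 of 7 tested genes and lower in 1, with sums between 456 and 505 FPKM in controls and between 1309 and 1441 FPKM with MMK-1. Enteroendocrine markers were higher in 7 of 10 tested genes and lower in 0, and goblet cell markers were higher in 6 of 8 and lower in 2, all in the limma fit. After upper-quartile scaling, which divides each library by the upper quartile of its values, enteroendocrine markers were higher in 5 and lower in 1, goblet cell markers were higher in 3 and lower in 2, and enterocyte markers were lower in 11 and higher in 0, whereas the counts for stem cell, proliferation and Paneth cell markers did not change. The summed proliferation markers were between 257 and 259.7 FPKM in controls and between 439 and 455 FPKM with MMK-1, and the summed enterocyte markers between 9546 and 9656 FPKM in controls and between 5279 and 5689 FPKM with MMK-1. Of 7 epithelial markers 2 were higher and 3 lower (after upper-quartile scaling 1 and 5), with sums between 2716 and 2731 FPKM in controls and between 2051 and 2219 FPKM with MMK-1. Vil1 (-1.21, adjusted p = 5.75e-08), Krt20 (-1.52, adjusted p = 2.52e-08) and Krt8 (-0.30, adjusted p = 2.39e-04) fell, Krt18 (0.44, adjusted p = 9.36e-05) and Cdh1 (0.17, adjusted p = 0.00359) rose, and Epcam and Cldn7 did not pass, where the first value is the log2 fold change. Epcam was at 390.0, 394 and 391 FPKM in controls and 377, 381 and 415 FPKM with MMK-1, and values of single libraries are given here and throughout in the order of replicates 1 to 3. The 7 immune markers in the table summed to between 1.78 and 6.19 FPKM in any library and the 8 mesenchymal markers to between 3.64 and 6.26 FPKM, both lower with MMK-1. In bulk libraries a changed number of cells of a type and a changed amount of RNA per cell cannot be told apart.

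With MMK-1, mitochondrial ribosomal protein genes changed little and in both directions. In the limma fit across all 10551 genes tested, 31 of the 78 members (39.7%) rose, 9 (11.5%) fell and 38 did not pass an adjusted p of 0.05. Over all genes tested, 48.5% rose and 24.7% fell, so that 51.3% of members passed in either direction against 73.2% of all genes. The upward share turned with a correction for gene length, under which 46 members (59%) rose and 6 (7.69%) fell, against 48.2% and 24.8% of all genes. It also turned when every gene above 0 was tested, with 42.3% of members higher against 28.1% of 20676 genes. No member reached a fold change of 2 at p of at most 0.05, the threshold of the study, which 3.39% of all genes tested passed upwards and 3.65% downwards, together 7.04%. Only Mrps28, Mrpl45 and Mrpl38 passed a fold change of 1.5 among the members, and the share of all genes past 1.5 was not computed. The mean FPKM of 36 members differed by less than 10% between the groups and that of 62 members by less than 25%. The median log2 fold change of the members was 0.097, with an interquartile range from -0.027 to 0.25, and that of all genes was 0.13, with an interquartile range from -0.14 to 0.41. Thus 61 of the 78 members lay inside the interquartile range of all genes, 9 above it and 8 below it.

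**Figure D1:**
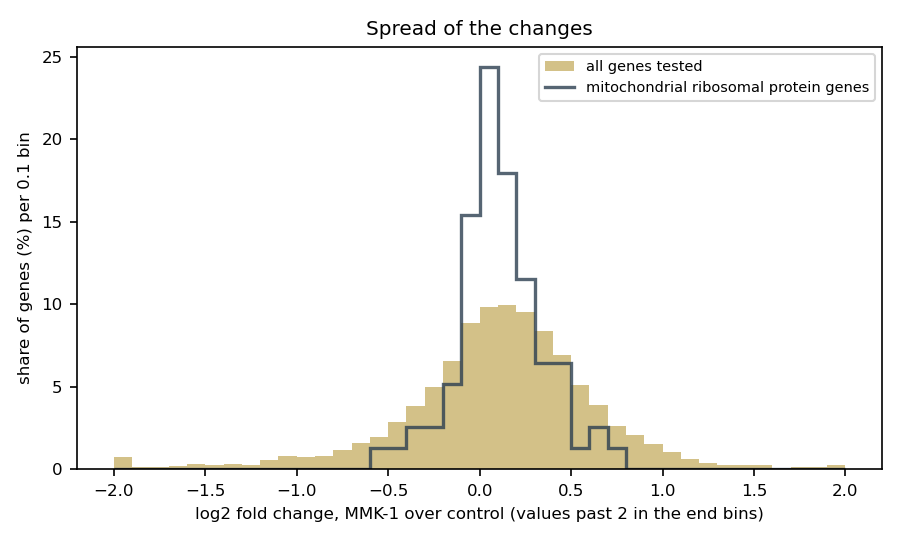
Share of genes in each bin of log2 fold change (MMK-1 over control, bins of 0.1) for the 78 mitochondrial ribosomal protein genes (outline) and for the 10551 genes tested (filled). The members form a narrow peak around their median of 0.097, whereas all genes spread into both end bins, which collect the values beyond 2.

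The groups of libraries did not overlap in 35 members with MMK-1 above and in 10 with MMK-1 below, together 57.7% of members, against 76.8% of all genes tested. The libraries of a group agreed closely. The median coefficient of variation of a member was 4.37% in the control group and 4.96% in the MMK-1 group, where counting alone gives a median of 2.69%. The summed FPKM of all members was 2170, 2190 and 2260 in controls and 2363, 2326 and 2484 with MMK-1, so that every MMK-1 library lay above every control library with the FPKM as deposited. After upper-quartile scaling the groups overlapped, with sums of 2286, 2313 and 2396 in controls and 2258, 2214 and 2316 with MMK-1. The members took 0.295% to 0.303% of the fragments in controls and 0.318% to 0.339% with MMK-1.

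The number of members called in each direction depended on the scaling between libraries. No scaling between libraries beyond FPKM is stated, and upper-quartile or median-of-ratios scaling moved the median of all genes from 0.13 to -0.0036 and -0.0034. After upper-quartile scaling 15 members rose and 19 fell, against 34.8% and 37% of all genes tested, and the median of the members moved from 0.097 to -0.058. Median-of-ratios scaling gave the same call for every member. Of the 31 members that rose, 15 stayed higher and 16 did not pass after rescaling. The 9 that fell stayed lower, and 10 further members fell only after rescaling, namely Mrps17, Mrpl55, Mrps31, Mrpl11, Mrpl40, Mrpl49, Mrpl35, Mrpl21, Mrpl51 and Mrps16. The sign of 26 members changed. Relative to the median of all genes, 32 members were above and 46 below. After correction for gene length the order turned, with 46 members above and 32 below the median of all genes and medians of 0.18 for members and 0.13 for all genes. With every gene above 0 tested it turned as well, with 56 members above and 22 below a median of 0.010. Without control replicate 2, 28 members rose and 5 fell, beside 44.6% and 22.4% of all genes.

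**Figure D2:**
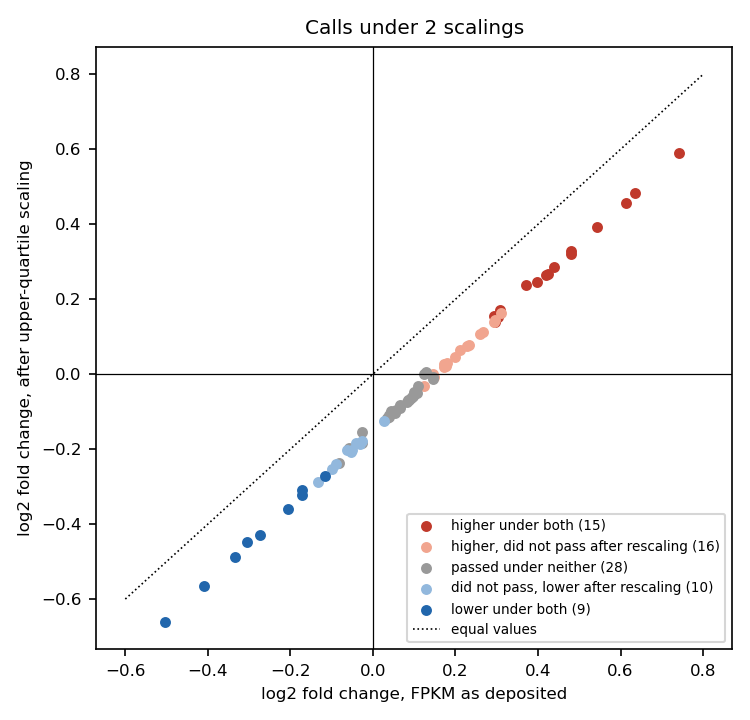
Log2 fold change of each of the 78 members (MMK-1 over control) from the FPKM as deposited (horizontal) and after upper-quartile scaling (vertical), coloured by the calls under both. All points lie under the dotted line of equal values, and 15 members were higher and 9 lower under both scalings.

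In total 20 members kept their call (adjusted p, without a fold threshold) and direction in each of 15 fits, which are the fit described and 14 alternatives in scaling, filter, pseudocount, model, correction for GC content or length, and left-out library. The share of all genes that kept their call in every fit was not computed. In the fit described 73.2% of all genes were called, so that such a count is not particular to the members. Mrpl3, Mrpl12, Mrpl19, Mrpl36, Mrpl37, Mrpl38, Mrpl45, Mrpl46, Mrpl47, Mrps5, Mrps10, Mrps18b, Mrps27, Mrps28 and Mrps30 were higher with MMK-1 in all of them. Mrpl23, Mrpl24, Mrpl27, Mrps15 and Mrps36 were lower in all of them.

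**Figure D3:**
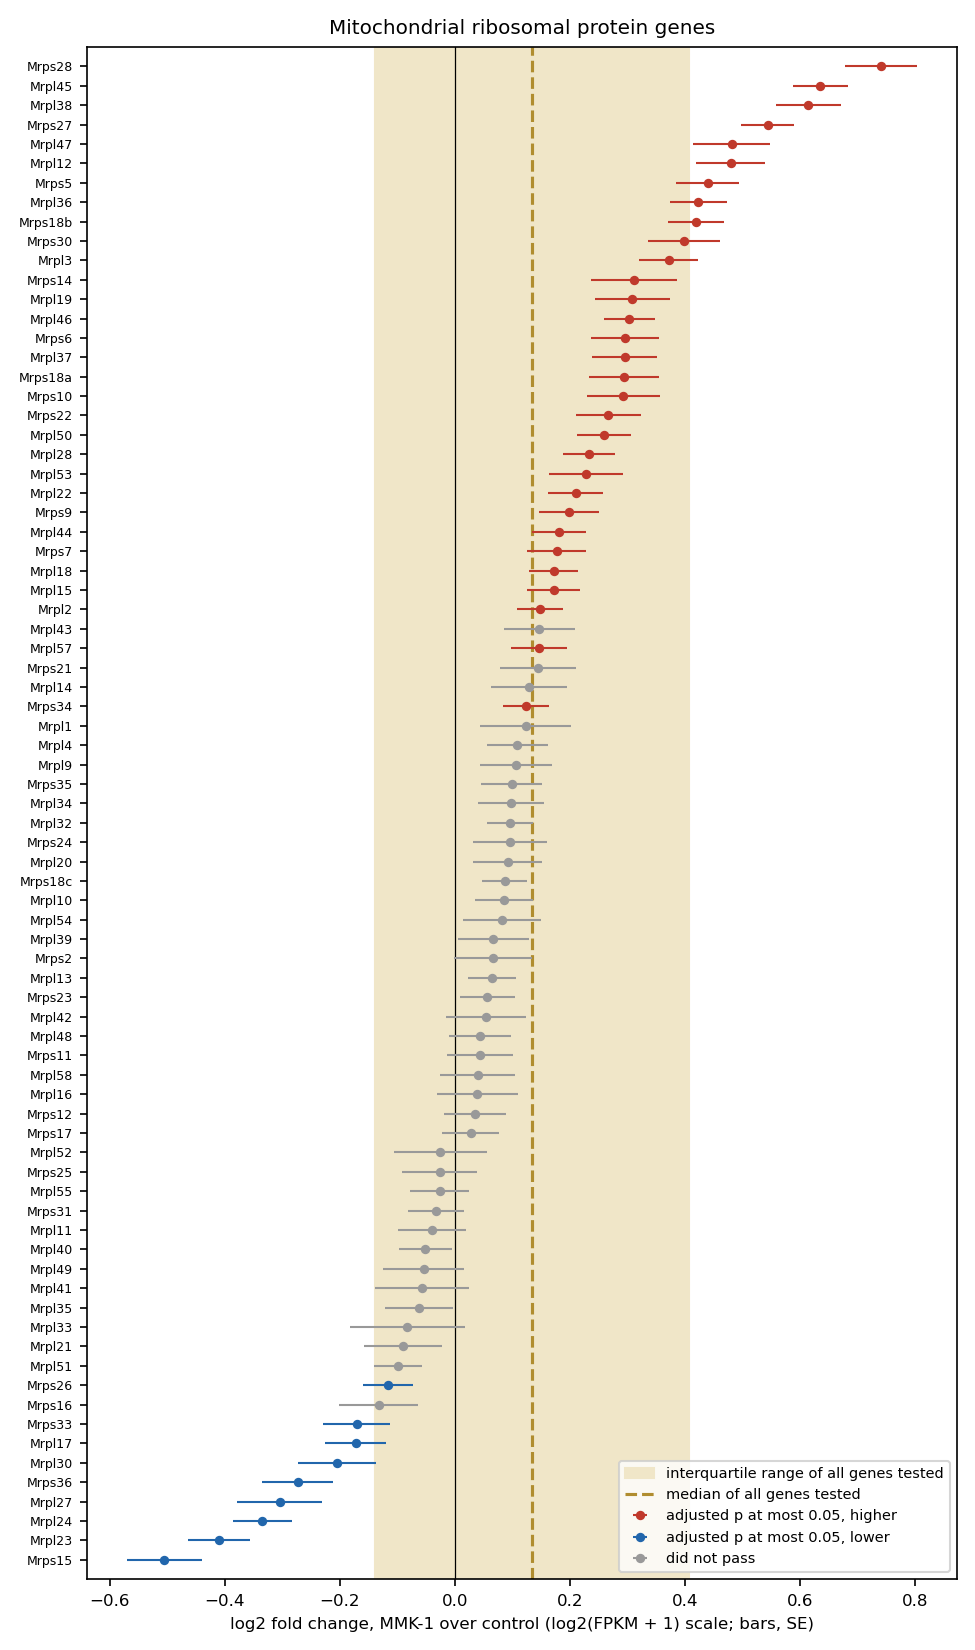
Log2 fold change of each of the 78 members (MMK-1 over control, on the log2(FPKM + 1) scale) with its standard error, ranked and coloured by the test. The dashed line and the band give the median (0.13) and the interquartile range of all genes tested, and most members lie inside the band.

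Mrps28, a small-subunit protein with a bacterial homologue on chromosome 3 (chr3:8802146-8923857), had the largest rise. It was at 16.9, 14.3 and 16.5 FPKM in controls and 26.4, 27.4 and 27.7 FPKM with MMK-1. All MMK-1 libraries were above all control libraries (log2 fold change 0.74 ± 0.063 (SE), adjusted p = 9.90e-06). Mrpl45 (chr11:97314923-97329920) encodes a mitochondria-specific protein beside the exit of the peptide tunnel that holds the ribosome to the inner membrane. It was at 14.5, 14.2 and 14.2 FPKM in controls and 21.9, 22.3 and 24.1 FPKM with MMK-1. The control libraries lay within a narrow range, well under the lowest MMK-1 library (log2 fold change 0.64 ± 0.047 (SE), adjusted p = 4.32e-06).

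Mrpl38 (chr11:116131817-116138868), a mitochondria-specific protein of the central protuberance of the large subunit, was at 33.9, 39.3 and 37.5 FPKM in controls and 57.1, 55.4 and 58.3 FPKM with MMK-1. The groups did not overlap (log2 fold change 0.61 ± 0.056 (SE), adjusted p = 1.57e-05). Mrps27 (chr13:99344767-99415562), a mitochondria-specific pentatricopeptide repeat protein of the small subunit, was at 14.6, 14.8 and 13.5 FPKM in controls and 21.0, 21.4 and 21.4 FPKM with MMK-1. The MMK-1 libraries were nearly equal and all above the controls (log2 fold change 0.54 ± 0.046 (SE), adjusted p = 9.90e-06). Mrpl47 (chr3:32727497-32736755), the large-subunit homologue of a bacterial protein at the tunnel exit, was at 17.6, 19.4 and 17.6 FPKM in controls and 24.9, 24.2 and 28.4 FPKM with MMK-1. MMK-1 replicate 3 was the highest, and the groups did not overlap (log2 fold change 0.48 ± 0.067 (SE), adjusted p = 2.11e-04). Exons of Mrpl47 overlap those of Actl6a and Ndufb5 in the annotation, so that some of its fragments may belong to them.

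Mrps15 (chr4:126046928-126055536), a small-subunit protein with a bacterial homologue that binds ribosomal RNA, had the largest fall. It was at 57.8, 53.7 and 56.8 FPKM in controls and 38.7, 36.1 and 43.2 FPKM with MMK-1. The highest MMK-1 library was replicate 3, which was still under every control library (log2 fold change -0.50 ± 0.065 (SE), adjusted p = 1.33e-04). Mrpl23 (chr7:142532467-142540747), which lies at the tunnel exit of the large subunit, was at 65.6, 61.1 and 60.8 FPKM in controls and 46.5, 44.2 and 49.8 FPKM with MMK-1. The groups did not overlap (log2 fold change -0.41 ± 0.054 (SE), adjusted p = 1.46e-04). A processed pseudogene is named after Mrpl23, and its reads may not be told apart from those of the gene.

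Mrpl24 (chr3:87918131-87923450), another large-subunit protein with a bacterial homologue, was at 36.0, 35.5 and 36.7 FPKM in controls and 27.5, 27.2 and 30.5 FPKM with MMK-1. The controls were nearly equal and above all MMK-1 libraries (log2 fold change -0.33 ± 0.051 (SE), adjusted p = 3.62e-04). Mrpl27 (chr11:94653770-94661932), whose bacterial homologue reaches towards the peptidyl transferase centre, was at 8.98, 9.65 and 10.99 FPKM in controls and 7.59, 7.44 and 8.32 FPKM with MMK-1. The controls spread more widely than the MMK-1 libraries but did not overlap with them (log2 fold change -0.30 ± 0.074 (SE), adjusted p = 0.00496). Mrpl24 shares exonic bases with Rrnad1 and Mrpl27 with Eme1. Mrps36 (chr13:100735940-100744659) carries a ribosomal name, by which it was kept among the members, but encodes a small subunit of the 2-oxoglutarate dehydrogenase complex. It was at 47.4, 47.1 and 55.3 FPKM in controls and 40.7, 41.6 and 40.7 FPKM with MMK-1. The groups did not overlap, and control replicate 3 was the highest library (log2 fold change -0.27 ± 0.062 (SE), adjusted p = 0.00364). There are 3 processed pseudogenes named after Mrps36.

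**Figure D4:**
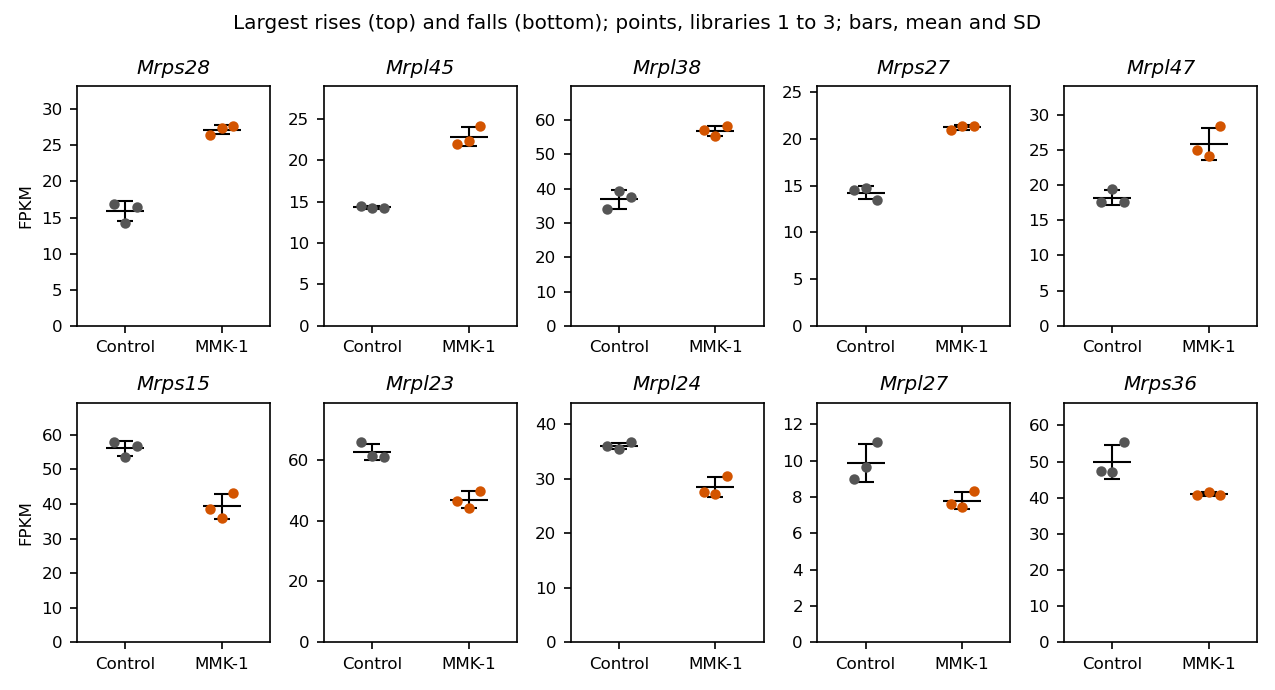
FPKM in each of the 6 libraries for the 5 members with the largest rise (top) and the 5 with the largest fall (bottom), with the mean and SD of each group of 3 and axes from 0. In all 10 genes the control and MMK-1 libraries do not overlap.

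The promoters of 5 members are shown because these genes stand at the ends of the ranking or have the highest level. Mrpl45 and Mrps27 had the largest rises among members with a window in the RefSeq promoter table, Mrps15 and Mrpl23 had the largest falls, and Mrpl12 had the highest level. Each line is the 250 bases before the annotated start on GRCm38.p6, 5′ to 3′ on the plus strand, and in Mrpl45, Mrpl23 and Mrps27 the annotated gene begins upstream of this start. The windows are chr11:97315466-97315715 for Mrpl45, chr13:99344536-99344785 for Mrps27, chr4:126046678-126046927 for Mrps15, chr7:142532782-142533031 for Mrpl23 and chr11:120484387-120484636 for Mrpl12. Capitals mark matches on either strand to the core letters bound by NRF1 (GCGCANGCG), by ETS factors such as GABPA (CCGGAAG), by YY1 (AAGATGGCG) or by E-box factors such as MYC (CACGTG).
Mrpl45: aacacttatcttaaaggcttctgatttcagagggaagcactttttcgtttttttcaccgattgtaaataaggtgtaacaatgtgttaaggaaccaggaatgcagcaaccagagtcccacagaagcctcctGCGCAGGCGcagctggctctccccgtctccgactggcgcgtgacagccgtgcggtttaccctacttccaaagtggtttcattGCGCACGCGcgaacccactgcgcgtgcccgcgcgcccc
Mrps27: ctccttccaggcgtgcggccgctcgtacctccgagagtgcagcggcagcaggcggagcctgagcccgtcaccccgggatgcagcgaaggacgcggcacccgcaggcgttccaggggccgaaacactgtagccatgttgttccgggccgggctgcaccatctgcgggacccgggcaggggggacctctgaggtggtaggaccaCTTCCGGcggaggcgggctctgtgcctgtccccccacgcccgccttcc
Mrps15: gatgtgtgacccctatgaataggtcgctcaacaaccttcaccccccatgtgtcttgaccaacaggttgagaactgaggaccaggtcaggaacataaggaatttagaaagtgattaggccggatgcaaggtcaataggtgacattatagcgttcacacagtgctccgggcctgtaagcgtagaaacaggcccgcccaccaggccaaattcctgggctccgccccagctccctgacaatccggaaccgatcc
Mrpl23: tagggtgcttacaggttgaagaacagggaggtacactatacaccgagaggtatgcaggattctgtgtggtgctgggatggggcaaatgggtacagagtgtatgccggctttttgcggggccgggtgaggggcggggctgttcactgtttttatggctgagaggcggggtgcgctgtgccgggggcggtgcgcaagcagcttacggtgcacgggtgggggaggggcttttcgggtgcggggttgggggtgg
Mrpl12: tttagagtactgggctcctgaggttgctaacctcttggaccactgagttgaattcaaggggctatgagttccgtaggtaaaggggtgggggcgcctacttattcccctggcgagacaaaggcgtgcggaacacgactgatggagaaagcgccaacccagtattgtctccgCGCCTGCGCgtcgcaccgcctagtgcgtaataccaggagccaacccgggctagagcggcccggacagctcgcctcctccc
Mrpl45 holds the NRF1 letters in 2 places and Mrpl12 in 1 place, Mrps27 holds the ETS letters, and no match lies in the printed stretch of Mrps15 or Mrpl23.

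RefSeq windows of 300 bases, which add 50 bases after the start, were matched by gene number to 69 members. Mrpl4, Mrpl13, Mrpl15, Mrpl19, Mrpl38, Mrpl54, Mrps28, Mrps34 and Mrps35 had none. The ETS letters were in 26 of the 69 members, or 37.7%, against 22.3% of the 8277 tested protein-coding genes with a window and 9.93% of all 27025 genes with a window. The YY1 letters were in 8 members (11.6%), against 4.10% of tested genes and 1.64% of all genes. The NRF1 letters were in 16 members (23.2%), against 16.6% of tested genes and 7.03% of all genes. The E-box letters were in 5 members (7.25%), against 12.5% of tested genes and 8.09% of all genes. At least 1 of the NRF1, ETS and YY1 motifs was in 42 of the 69 windows, and no matches to different motifs overlapped. Of the 26 members with the ETS letters 9 were called higher and 4 lower with MMK-1 (adjusted p up to 0.05), and of the 16 with the NRF1 letters 7 were called higher and 3 lower. Of the 8 with the YY1 letters 4 were higher and 0 lower, and over all genes tested 48.5% were higher and 24.7% lower. After upper-quartile scaling the counts were 3 higher and 7 lower with the ETS letters, 3 and 3 with the NRF1 letters and 3 and 1 with the YY1 letters, beside 34.8% and 37% of all genes. A match is a description of the sequence and no measurement of binding.

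The other 4 members that fell fell less. Mrpl30 (-0.21, adjusted p = 0.0220), Mrpl17 (-0.17, adjusted p = 0.0154), Mrps33 (-0.17, adjusted p = 0.0249) and Mrps26 (-0.12, adjusted p = 0.0353) each lost the call in at least 1 of the 14 alternatives. Mrpl17 and Mrpl30 have bacterial homologues in the large subunit, and Mrps26 and Mrps33 are mitochondria-specific proteins of the small subunit.

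The levels of the members, per length of gene, spanned a 39.1-fold range of mean FPKM, from 3.34 to 130.6, with a median of 24.98 and an interquartile range from 13.9 to 40.6. Mrpl12 was the highest. It encodes the stalk protein that recruits translation factors and also binds the mitochondrial RNA polymerase. Its values were 104, 106 and 116 FPKM in controls and 153, 143 and 162 FPKM with MMK-1, with MMK-1 replicate 2 the lowest of the treated libraries but above every control (log2 fold change 0.48 ± 0.060 (SE), adjusted p = 1.06e-04). Mrpl52 (82.7, 99.3 and 104 FPKM in controls and 98.4, 90.6 and 90.6 FPKM with MMK-1) and Mrpl42 (77.1, 84.3 and 94.0 FPKM in controls and 88.0, 84.8 and 91.7 FPKM with MMK-1) followed, with overlapping groups and log2 fold changes of -0.026 and 0.054 (adjusted p = 0.786 and 0.497). The SD of Mrpl52 was 11.1 FPKM in the control group, wider than its distance to Mrpl42, so that their order is not distinguished. The lowest were Mrpl14 (3.23, 3.08 and 3.12 FPKM in controls and 3.77, 3.13 and 3.72 FPKM with MMK-1) and Mrpl1 (3.73, 3.27 and 2.99 FPKM in controls and 3.96, 3.84 and 3.33 FPKM with MMK-1), whose libraries interleave, and then Mrps25 (3.98, 4.54 and 4.20 FPKM in controls and 4.19, 3.81 and 4.44 FPKM with MMK-1). None of these members passed the test, with log2 fold changes of 0.13, 0.12 and -0.026 and adjusted p of 0.111, 0.189 and 0.730. Their FPKM depends on the length counted, which was 7525 bases for Mrpl14 and 4591 bases for Mrpl1. Mrpl14 had 846 to 1039 fragments in a library and Mrpl1 513 to 646, more than the 362 to 489 of Mrps6 at 780 bases. Exons of Mrpl14 also overlap those of Tmem63b. The order of the members by level was nearly the same in both groups (Spearman's rho 0.969 across the 78 genes, whose libraries are shared within a group). Across the members the rho of fold change was -0.048 with level, 0.023 with length and 0.11 with GC content, against -0.14, 0.15 and -0.14 across all genes tested. The members were shorter than other genes, with a median length of 1506 bases against 3394 bases.

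Members of both subunits rose and fell, and no difference between the subunits was tested. Mrps36 was left out of the subunit and homology classes. Of 51 large-subunit members 20 rose and 5 fell, and of 26 small-subunit members 11 rose and 3 fell, with a median log2 fold change of 0.097 in each, beside 48.5% higher and 24.7% lower over all genes tested. Among 46 members with a bacterial homologue 17 rose and 6 fell (median 0.097), and among 31 mitochondria-specific members 14 rose and 2 fell (median 0.099). Of the 21 mitochondria-specific members of the large subunit 10 rose and 0 fell in the limma fit, with 1 further member whose groups did not overlap and were lower with MMK-1 (Mrpl51, -0.10, adjusted p = 0.0581). After upper-quartile scaling 5 of these 21 rose and 3 fell, and the counts were 10 higher and 12 lower in the large subunit, 5 and 6 in the small subunit, 8 and 12 with a bacterial homologue and 7 and 6 among the mitochondria-specific members, beside 34.8% and 37% of all genes. Without MMK-1 replicate 3 the counts were 21 higher and 7 lower in the large subunit and 11 higher and 3 lower in the small subunit. In that fit 49.2% of all genes were higher and 27.9% lower.

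Members were also grouped by functional site of the ribosome, after the values were seen and without a test. At the peptide exit Mrpl23, Mrpl24 and Mrpl17 fell, whereas Mrpl45 and Mrpl47 rose under every scaling and Mrpl22 rose only with the FPKM as deposited (0.21, adjusted p = 0.00350). In the stalk Mrpl12 rose, whereas its neighbours Mrpl10 (0.086, adjusted p = 0.152) and Mrpl11 (-0.040, adjusted p = 0.556) did not pass, and Mrpl11 was lower after upper-quartile scaling. Of mitochondria-specific proteins of the central protuberance, Mrpl38 and Mrpl46 (0.30, adjusted p = 2.98e-04) rose, whereas Mrpl40 (-0.051, adjusted p = 0.343) and Mrpl48 (0.044, adjusted p = 0.476) did not pass. Mrpl46 shares exonic bases with Mrps11 on the opposite strand, and the strand used in counting is not given in the sources used here.

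Members with known particular roles also differed. Mrps12, at the decoding centre of the small subunit, was at 23.2, 22.1 and 23.3 FPKM in controls and 23.2, 22.1 and 25.2 FPKM with MMK-1. The groups overlapped (log2 fold change 0.035 ± 0.054 (SE), adjusted p = 0.580), and its sign turned after rescaling and without MMK-1 replicate 3. After length correction Mrps12 passed upwards (0.14, adjusted p = 0.0220). Mrpl58, a peptidyl-tRNA hydrolase that is built into the large subunit and can free stalled ribosomes, was at 12.4, 12.7 and 12.7 FPKM in controls and 11.7, 13.1 and 14.2 FPKM with MMK-1. MMK-1 libraries lay on both sides of the controls (log2 fold change 0.040 ± 0.065 (SE), adjusted p = 0.600), with the same changes of sign. Mrpl44, related to ribonuclease III, was at 15.7, 14.6 and 15.2 FPKM in controls and 16.7, 17.8 and 17.6 FPKM with MMK-1. It rose without overlap (log2 fold change 0.18 ± 0.047 (SE), adjusted p = 0.00729), but did not pass after either rescaling.

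The Mrps18 family has 3 related members, of which Mrps18c was counted here with the bacterial homologues and Mrps18a and Mrps18b with the mitochondria-specific proteins. Mrps18b was at 26.9, 27.0 and 25.5 FPKM in controls and 37.7, 35.2 and 34.3 FPKM with MMK-1 and rose under all scalings (log2 fold change 0.42 ± 0.049 (SE), adjusted p = 6.83e-05). Mrps18a, which is placed in the large subunit despite its symbol, was at 31.3, 30.9 and 34.5 FPKM in controls and 38.2, 38.2 and 42.8 FPKM with MMK-1 and rose with the FPKM as deposited (log2 fold change 0.29 ± 0.061 (SE), adjusted p = 0.00215), but did not pass after rescaling. Mrps18c was at 41.5, 39.7 and 40.7 FPKM in controls and 42.6, 42.9 and 44.2 FPKM with MMK-1. Its MMK-1 libraries were all above the controls by a small margin that did not pass (log2 fold change 0.087 ± 0.039 (SE), adjusted p = 0.0739), and its sign turned after rescaling. Mrps18c passed upwards after length correction (0.19, adjusted p = 0.00338) and with every gene above 0 (0.087, adjusted p = 0.0463). Mrps30, also a large-subunit protein, was at 21.3, 21.6 and 23.8 FPKM in controls and 31.1, 27.4 and 30.4 FPKM with MMK-1 and rose under all scalings (log2 fold change 0.40 ± 0.062 (SE), adjusted p = 4.12e-04).

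The remaining members that rose did so by 0.12 to 0.44 on the log2 scale. Those that passed in each of the 15 fits, without a fold threshold, were Mrps5 (0.44, adjusted p = 1.09e-04), Mrpl36 (0.42, adjusted p = 7.11e-05), Mrpl3 (0.37, adjusted p = 2.06e-04), Mrpl19 (0.31, adjusted p = 0.00252), Mrpl37 (0.29, adjusted p = 0.00139) and Mrps10 (0.29, adjusted p = 0.00273). Mrpl36 shares exonic bases with Ndufs6. Those that passed with the FPKM as deposited but not after rescaling were Mrps14, Mrps6, Mrps22, Mrpl50, Mrpl28, Mrpl53, Mrps9, Mrps7, Mrpl18, Mrpl15, Mrpl2, Mrpl57 and Mrps34, from 0.31 in Mrps14 down to 0.12 in Mrps34. The sign of Mrpl2 and Mrps34 turned after rescaling, and that of Mrpl15 and Mrps9 after GC correction.

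The 38 members that did not pass had log2 fold changes between -0.13 and 0.15, with standard errors of 0.039 to 0.10 and adjusted p from 0.0552 to 0.786. Of these, 25 had a positive value, namely Mrpl43, Mrps21, Mrpl14, Mrpl1, Mrpl4, Mrpl9, Mrps35, Mrpl34, Mrpl32, Mrps24, Mrpl20, Mrps18c, Mrpl10, Mrpl54, Mrpl39, Mrps2, Mrpl13, Mrps23, Mrpl42, Mrpl48, Mrps11, Mrpl58, Mrpl16, Mrps12 and Mrps17. The 13 with a negative value were Mrpl52, Mrps25, Mrpl55, Mrps31, Mrpl11, Mrpl40, Mrpl49, Mrpl41, Mrpl35, Mrpl33, Mrpl21, Mrpl51 and Mrps16. A difference that misses the threshold does not show that the levels were equal.

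Exons of 33 members overlap those of another gene in GENCODE vM21 on GRCm38. Of the members called in every fit these are Mrpl3, Mrpl12, Mrpl19, Mrpl24, Mrpl27, Mrpl36, Mrpl46, Mrpl47, Mrps18b, Mrps27 and Mrps30, so that some of their fragments may belong to other genes. Among the 45 members without such an overlap 16 rose and 6 fell, with a median of 0.092, beside 48.5% and 24.7% of all genes tested. After upper-quartile scaling 6 of them rose and 13 fell, with a median of -0.063.

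The members lie on 17 chromosomes, with 11 on chromosome 11. The start of 18 members (23.1%) lay within 1000 bases of that of another protein-coding gene on the opposite strand, head to head without overlap of the genes, against 11.1% of 9853 tested protein-coding genes. With starts that overlap counted too, as for Mrpl46 and Mrps11, it was 33 members (42.3%) against 17.8%. In 15 of the 18 pairs without overlap the partner was also tested. Mrps27 rose together with Ptcd2, 81 bases away (partner log2 fold change 0.32, adjusted p = 0.000287), and Mrpl57 with Ska3, 49 bases away (partner 0.74, adjusted p = 1.82e-05). Mrpl57 did not pass after upper-quartile scaling (0.00046, adjusted p = 0.993). Mrpl30 fell together with Mitd1, 66 bases away (partner -0.15, adjusted p = 0.0214). Mrpl2 rose with the FPKM as deposited, a sign that turned after rescaling, while its partner Klc4, 207 bases away, fell (-0.77, adjusted p = 4.12e-06). Mrpl51 did not pass, whereas Ncapd2, a condensin subunit 100 bases away, rose (0.88, adjusted p = 2.23e-06). Mrps12 did not pass, whereas Sars2, the mitochondrial seryl-tRNA synthetase 172 bases away, rose (0.44, adjusted p = 0.00103).

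Of 5 proteins of the mitochondrial ribosome with other names 3 rose and 1 fell, beside 48.5% and 24.7% of all genes. Gadd45gip1, a large-subunit protein, was at 14.4, 16.1 and 15.7 FPKM in controls and 24.2, 23.5 and 26.8 FPKM with MMK-1. It rose without overlap (log2 fold change 0.65 ± 0.061 (SE), adjusted p = 1.82e-05). Ptcd3, a pentatricopeptide repeat protein at the mRNA entry of the small subunit, was at 13.6, 13.4 and 13.5 FPKM in controls and 19.3, 19.4 and 17.4 FPKM with MMK-1. It also rose (log2 fold change 0.44 ± 0.051 (SE), adjusted p = 6.11e-05), as did Chchd1 of the small subunit (log2 fold change 0.48 ± 0.052 (SE), adjusted p = 4.32e-05). Aurkaip1 of the small subunit fell (log2 fold change -0.24 ± 0.051 (SE), adjusted p = 0.00268). The GTP-binding protein Dap3 did not pass (log2 fold change 0.086 ± 0.052 (SE), adjusted p = 0.164). These calls were the same after upper-quartile scaling, where 34.8% of all genes rose and 37% fell.

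The genes that serve the mitochondrial ribosome were also mixed, in lists that were chosen by function. Of 25 assembly factors 11 rose and 7 fell, from the GTPase Noa1 (0.57, adjusted p = 3.14e-05) to the rRNA dimethyltransferase Tfb1m (-0.46, adjusted p = 1.97e-04). Of 17 translation factors 8 rose and 3 fell, from the elongation factor Tsfm (0.75, adjusted p = 1.05e-06) to the release factor homologue Mtrfr (-0.67, adjusted p = 1.81e-04). Tsfm was at 14.0, 13.8 and 13.7 FPKM in controls and 22.8, 24.3 and 24.5 FPKM with MMK-1, a change as large as the largest among the members. Of 20 mitochondrial aminoacyl-tRNA synthetases and amidotransferase subunits 10 rose and 3 fell, from Yars2 (0.81, adjusted p = 4.15e-07) to Rars2 (-0.33, adjusted p = 2.87e-04). The median log2 fold changes of these lists were 0.15, 0.061 and 0.13, beside 0.13 over all genes, of which 48.5% rose and 24.7% fell. Of 11 tested genes of mitochondrial DNA transcription and replication 6 rose and 1 fell, from the exonuclease Mgme1 (0.62, adjusted p = 1.26e-05) to the polymerase accessory subunit Polg2 (-0.49, adjusted p = 1.14e-05). After upper-quartile scaling the counts were 7 higher and 9 lower for assembly factors, 3 and 7 for translation factors, 8 and 6 for synthetases and 4 and 2 for transcription and replication. Over all genes 34.8% were higher and 37% lower after this scaling.

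Of 10 tested regulators known to act on genes for mitochondrial proteins 7 rose and 1 fell, beside 48.5% and 24.7% of all genes, and after upper-quartile scaling 5 rose and 2 fell, beside 34.8% and 37%. The coactivator Pprc1 had the largest rise, at 5.20, 5.60 and 5.17 FPKM in controls and 8.70, 9.15 and 9.53 FPKM with MMK-1 (log2 fold change 0.68 ± 0.053 (SE), adjusted p = 5.56e-06). Nrf1 (0.50, adjusted p = 6.53e-05), Gabpa (0.44, adjusted p = 0.00203), Yy1 (0.50, adjusted p = 6.35e-04) and Myc (0.30, adjusted p = 5.82e-04) also rose, and these 4 and Pprc1 stayed higher after upper-quartile scaling. Yy1 and Gabpa were lower in MMK-1 replicate 3 than in the other treated libraries. The nuclear receptor Esrra fell, at 111, 112 and 112 FPKM in controls and 91.5, 90.4 and 93.8 FPKM with MMK-1 (log2 fold change -0.28 ± 0.036 (SE), adjusted p = 1.25e-04).

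The products of mitochondrial translation are encoded by 13 genes of mitochondrial DNA, of which 7 rose and 1 fell, beside 48.5% and 24.7% of all genes, and their libraries were uneven. After upper-quartile scaling 5 rose and 2 fell, with ND3 and ATP6 no longer passing and COX1 lower. ND2 of complex I was at 3577, 3752 and 3697 FPKM in controls and 11530, 10067 and 4110 FPKM with MMK-1. MMK-1 replicate 3 was close to the controls and the other treated libraries far above them (log2 fold change 1.09 ± 0.322 (SE), adjusted p = 0.0137). ATP8 of the ATP synthase, the largest rise of the list, was at 23.7, 18.9 and 21.9 FPKM in controls and 99.9, 95.4 and 26.5 FPKM with MMK-1, with the same pattern (log2 fold change 1.52 ± 0.427 (SE), adjusted p = 0.0105). COX1, the most abundant, was at 21326, 21065 and 20719 FPKM in controls and 21211, 21808 and 20277 FPKM with MMK-1 with overlapping groups (log2 fold change 0.0037 ± 0.044 (SE), adjusted p = 0.944). ND4 fell (log2 fold change -0.15 ± 0.051 (SE), adjusted p = 0.0223). Without MMK-1 replicate 3, 9 of the 13 rose and 1 fell, and the log2 fold change of ND2 was 1.55 and that of ATP8 was 2.14. Without this library 32 of the 78 members were higher and 11 lower, beside 49.2% and 27.9% of all genes.

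Cytosolic ribosomal protein genes, taken by symbol in the same way, had a similar median change and a narrower interquartile range. Of 80 tested genes 39 rose (48.8%) and 1 fell (1.25%), beside 48.5% and 24.7% of all genes. Their median log2 fold change was 0.12, with an interquartile range from 0.030 to 0.20. After upper-quartile scaling 9 rose and 23 fell (median -0.036), beside 34.8% and 37% of all genes. Their median level was 788 FPKM against 24.98 FPKM for the members. The interquartile range of the members, from -0.027 to 0.25, was wider. The full range was from -0.14 to 1.52 for cytosolic genes and from -0.50 to 0.74 for the members. The proliferation markers, with a median of 0.95, and the stem cell markers, with a median of 1.80, were higher under both scalings, and their part in the members' values was not tested.

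**Figure D5:**
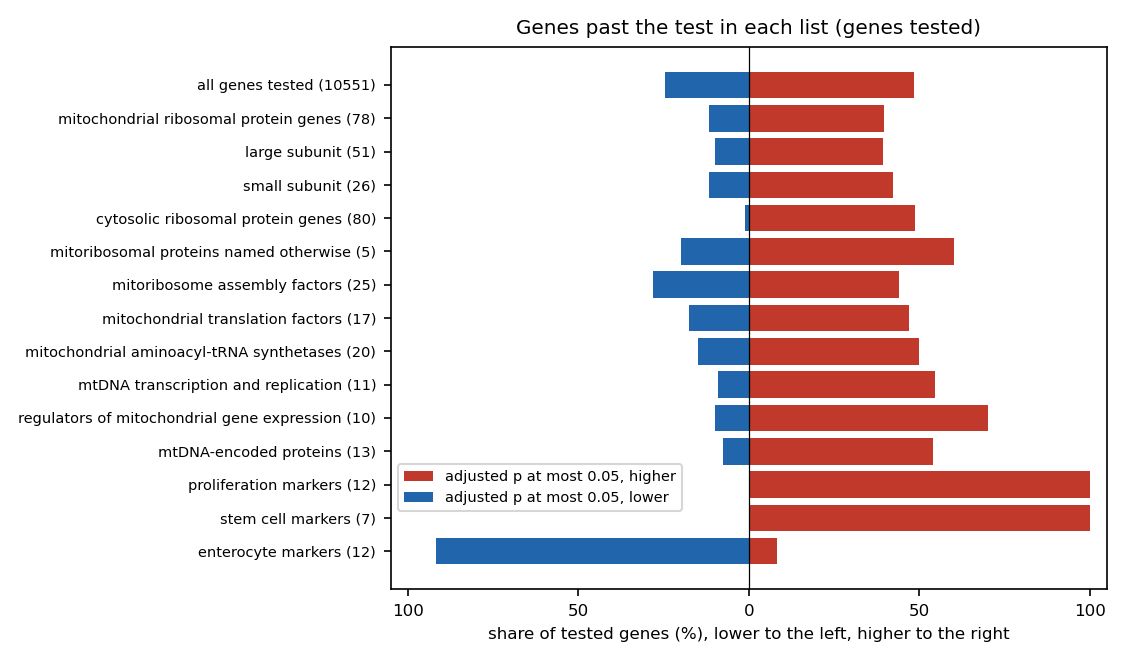
Share of tested genes that rose (right, red) or fell (left, blue) in each list, with an adjusted p up to 0.05, with the number tested in parentheses. Mitochondrial ribosomal protein genes have smaller shares in both directions (39.7% and 11.5%) than all genes tested (48.5% and 24.7%) with the FPKM as deposited. Their upward share is larger after correction for gene length (59% against 48.2%) and with every gene above 0 (42.3% against 28.1%).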

How the data were processed

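RNA from 3 control and 3 MMK-1 organoid samples was made into libraries (VAHTS Universal V10 kit) and sequenced with 150-base paired reads. The authors deposited FPKM values for 21397 genes, and the submitters' processing notes name HISAT2, HTSeq, R 3.2.0, DESeq2 and mm10 without giving their roles. Each value is a whole number of fragments times a factor of its library and gene, so fragments and totals were computed for all 20676 genes above 0, within 0.02 of a whole number. Listed genes held 99.7% of each total. Intervals from counts would cover counting error only. That the 3 samples of a group came from separate cultures is given only as organoids of 3 mice per sample, so p-values measure the spread between these samples.

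Differences were tested with limma 3.58.1 in R 4.3.3 (trend, no block) on log2(FPKM + 1), a scale that understates changes of low genes, over 10551 genes with a mean of at least 1 FPKM, with Benjamini-Hochberg adjustment over all of them. Exact permutation of 3 against 3 samples cannot give a p below 0.1 and was not used. Python 3.11.15 with numpy 2.4.6, pandas 2.3.3 and matplotlib 3.10.9 was used otherwise. The fit and the recovery of fragments were tested on simulated data. Alternatives were upper-quartile and median-of-ratios scaling, every gene above 0, a pseudocount of 0.1, a replicate block, leaving out each library, limma-voom on recovered fragments, trends on GC content or length removed (span 0.3), and a fold change of 1.5.

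The members and lists were chosen with earlier results of these data known. Named were the 5 members with the largest rise and fall, every member that did not pass, the 3 highest and lowest levels, members of set roles, and the extremes of each other list, and members outside this rule were named after their values were seen. Subunit and homology classes and lists came from general knowledge of the mitochondrial ribosome. Coordinates of genes and promoter sequences are RefSeq on GRCm38.p6, which is the assembly of mm10, and overlaps and start distances are from GENCODE vM21.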

Additional observations from a re-analysis of the deposited data

How the results depend on the processing

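Across the 14 alternatives between 15 and 46 members were higher and between 5 and 19 lower. Of all genes 28.1% to 50.9% were higher and 15.2% to 37.1% lower across them. Only Mrps17, which did not pass in the fit described, passed in opposite directions in them (0.12 after length correction and -0.12 after upper-quartile or median-of-ratios scaling). Of the members that rose, Mrpl2 and Mrps34 were at -0.0078 and -0.032 after upper-quartile and -0.0077 and -0.032 after median-of-ratios scaling, and Mrpl15 and Mrps9 at -0.0026 and -0.030 after GC correction, none of which passed. Upper-quartile and median-of-ratios scaling each gave 15 members higher and 19 lower, medians of -0.0585 and -0.0583 for members and -0.0036 and -0.0034 for all genes, and 3916 genes lower of all tested under median-of-ratios scaling. Under these scalings Mrpl58 had log2 fold changes of -0.11 and -0.11, Mrps12 of -0.12 and -0.12, and Mrps18c of -0.069 and -0.069. With every gene above 0 the median of all genes was 0.010 and 28.1% of them were higher, below the members' 0.097 and 42.3%. Length correction moved the members' median to 0.18, with 46 higher (59%) and 6 lower, whereas all genes had a median of 0.13 and 48.2% higher, so that the members' median and upward share passed from below those of all genes to above them. GC correction gave 0.011 for Mrpl11. With a fold threshold of 1.5 added to p up to 0.05, 3 members were higher and 0 lower, without a share of all genes for comparison.

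Leaving out 1 library gave 28 to 34 members higher, 5 to 11 lower and a median of 0.078 to 0.14. Of all genes 44.6% to 49.2% were higher and 22.4% to 27.9% lower in these fits, with medians of 0.12 to 0.14. The 5 members lower were without control replicate 2, and the members' medians of 0.14 and 0.078 were without MMK-1 replicates 2 and 3. Over the left-out libraries Mrpl58 ranged from -0.022 to 0.11 and Mrps12 from -0.014 to 0.076, both negative only without MMK-1 replicate 3. Samples with the same number did not deviate together (correlations 0.025, -0.040 and 0.028), so the replicate block was not read as a pairing. It gave 31 members higher and 9 lower and changed 0 calls of members. Of 1092 values of the 78 members under the 14 alternatives, 894 kept direction and side of the threshold, 59 lost the call, 56 gained one and 83 changed sign. The causes were not tested.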
